A study of Bos taurus and Ovis aries and Capra hircus with 27 samples.

Results

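The heart of indigenous goats was compared, gene model by gene model, with 3 libraries labelled kidney. A model of the goat table entered the comparison when its value was above 0.5 FPKM in at least 3 of these 6 libraries, and 12993 of the 22131 models did. FPKM is a fragment count scaled by transcript length and by library size, hence a level per length. It was deposited as log2(FPKM + 1), and every difference below is the mean of the heart libraries minus that of the libraries labelled kidney on this log2 scale, given ± its SE with 3 libraries in each group and tested with limma. The series holds 27 mRNA sequencing libraries of heart, liver and kidney from cattle, sheep and goats. The 2 groups used here, heart and kidney, hold 3 libraries each from goats of the strain called indigenous, aged about 3 years, and the study sampled unrelated adult females. The table names models by identifier alone, so that genes are given here by identifier and by the protein family whose sequence signature their deposited protein carries.

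Cardiac muscle contracts when calcium released from the sarcoplasmic reticulum binds troponin C and frees actin for the myosin heads, whose light chains stiffen the lever arm. The calcium is then pumped back by SERCA, which phospholamban restrains. The ATP comes mostly from mitochondrial oxidation of fatty acids and lactate, and creatine kinase carries the phosphate from mitochondria to the filaments. The kidney is known for tubular epithelium that reclaims sodium, phosphate, sugar and amino acids from the filtrate by way of dedicated symporters, for the endocytic receptor megalin, and for uromodulin, a zona pellucida domain protein secreted into the urine.

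The marker families of heart were high in the heart libraries, whereas those of kidney gave a mixed answer. Of the 18 models in the muscle protein families taken as heart markers, 11 were tested, 5 of which had passed the filter through heart only. The 18 summed to 22250.0, 16380.0 and 16260.0 FPKM in the heart libraries against 85.6, 52.3 and 72.5 FPKM in the libraries labelled kidney. Troponin C, added to these families after levels had been seen, gave 10219.7, 8042 and 8034 FPKM of the heart sum. The families taken as kidney markers held 63 models, of which 40 stood at or under 0.5 FPKM in all 3 libraries labelled kidney. Of the 19 that were tested, 13 were higher in the libraries labelled kidney and 1 in heart (11 and 3 under median ratio scaling, defined below), and 4 had passed the filter through the libraries labelled kidney only. Of all tested models, 49.1% were higher in the libraries labelled kidney and 19.6% in heart (32.4% and 30.8% under median ratio scaling). The 63 models summed to 344, 736 and 639 FPKM in the libraries labelled kidney, 138, 159 and 127 FPKM in heart and 944, 813 and 955 FPKM in the goat liver libraries. The families differed in this. Aquaporins summed to 84.1, 52.6 and 58.98 FPKM in the libraries labelled kidney and to 542, 352 and 532 FPKM in liver, and claudins, which seal epithelium, to 26.7, 27.6 and 21.3 FPKM and 237, 151 and 163 FPKM. In heart, aquaporins summed to 86.9, 85.7 and 58.1 FPKM and claudins to 4.34, 3.32 and 4.98 FPKM. Of 5 tested claudins, 4 were higher in the libraries labelled kidney on both scales and 0 in heart. Zona pellucida domain proteins exceeded liver as well as heart, at 152, 523 and 405 FPKM in the libraries labelled kidney, 73.7, 123 and 119.6 FPKM in liver and 9.9, 28.9 and 24.4 FPKM in heart. Most of that sum came from GOAT_ENSP00000376540 (96.2, 481 and 369.8 FPKM against 0.147, 3.61 and 4.05 FPKM in heart, -6.44 ± 0.76), and all 3 tested members were higher in the libraries labelled kidney. The signature does not tell which zona pellucida domain protein this model is, so it cannot be read as uromodulin. The sodium-neurotransmitter and amino acid symporters, whose signature covers both kinds, likewise exceeded both other tissues. They summed to 14.3, 33.8 and 46.3 FPKM in the libraries labelled kidney, 1.14, 1.99 and 3.52 FPKM in liver and 1.08, 1.94 and 1.503 FPKM in heart. Most of that sum came from 1 model, GOAT_ENSP00000361381, and 6 of the 10 models stayed at or under 0.5 FPKM in all libraries labelled kidney. Both sodium-phosphate symporters, all 3 amiloride-sensitive sodium channel subunits and both klotho-type glycosidases stayed at or under 0.5 FPKM in each of the 3 libraries labelled kidney. The LDL receptor family model of 4628 residues, a length near that of megalin, was at 0.179, 0.00829 and 0.0474 FPKM (GOAT_ENSBTAP00000005988). A further set held the J chain, C-C and C-X-C chemokine, tyrosine-based activation motif, lysozyme and scavenger receptor cysteine-rich families, 60 models added after levels had been seen. This set, by contrast, summed to 12750.0, 11500.0 and 9361 FPKM in the libraries labelled kidney, 191, 265 and 321 FPKM in heart and 1247, 819.5 and 1168 FPKM in liver. The J chain alone gave 7542, 6471 and 1028 FPKM of the sum in the libraries labelled kidney. These values concerned all 3 libraries labelled kidney, so no result can be given without them, and the label is used below only as the name of the group. In bulk tissue, fewer cells of a type and less RNA per cell cannot be told apart.

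**Figure D1:**
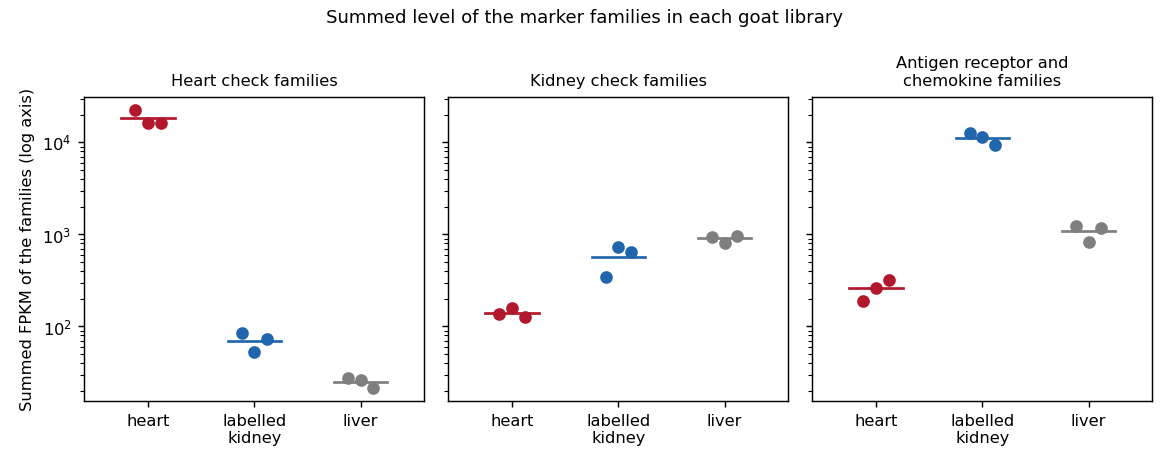
Summed FPKM (log axis) of the heart, kidney, and antigen receptor and chemokine marker families; points are libraries and lines are means of 3. The libraries labelled kidney lie below liver for the kidney families in all 3 replicates and above both other tissues for the antigen receptor and chemokine families. Troponin C in the heart set, and all of the last set, were added after levels had been seen. The J chain gave 7542, 6471 and 1028 FPKM of the last set's sum in the libraries labelled kidney.

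The libraries summed to 591079 to 648510 FPKM in the group labelled kidney and to 808954 to 828807 FPKM in heart, and read counts behind the values are unknown. The 10 most abundant models took 25.8 to 27.8% of the sum in heart and 11.4 to 18.8% in the libraries labelled kidney. Replicates correlated at r = 0.961 to 0.984 within heart and at r = 0.911 to 0.970 within the group labelled kidney, and libraries of different groups at r = 0.553 to 0.633, across genes, which are not independent replicates.

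Most of the tested models differed between the groups. Of the 12993 models, 8922 (68.7%) were called at an adjusted p of at most 0.05 (limma, Benjamini-Hochberg), of which 2548 (19.6% of those tested) were higher in heart and 6374 (49.1%) were higher in the libraries labelled kidney. The split rests on the scaling. When libraries were instead scaled to a common reference by the median of their ratios (median ratio scaling), the median difference moved by 0.54, from -0.61 to -0.06, and 4007 models (30.8%) were higher in heart against 4212 (32.4%). Hence the share of calls that were higher in heart was 28.6% as deposited and 48.8% under median ratio scaling. Among larger differences, 876 models were at least 4-fold higher in heart and 1651 in the libraries labelled kidney as deposited, and 1279 and 1115 after median ratio scaling. At 256-fold or more, 28 models were higher in heart and 15 in the libraries labelled kidney. In all, 9561 tested models (73.6%) had groups that did not overlap. In 102 called models every library labelled kidney was listed at 0, and in 159 every heart library was. Of the tested models, 385 exceeded 0.5 FPKM in all 3 heart libraries and in none of the others, and 934 the reverse, and these had to differ to enter. Groups of families are read below against these percentages.

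**Figure D2:**
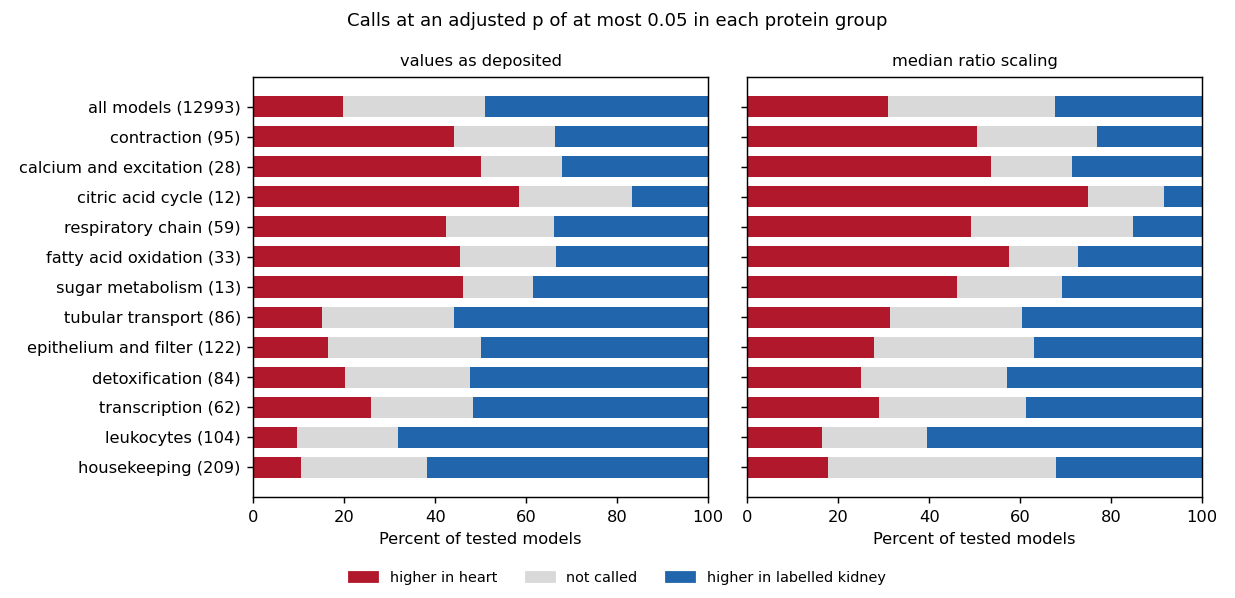
Percent of tested models in each protein group, with the number tested in brackets, that were called higher in heart (red), called higher in the libraries labelled kidney (blue) or not called (grey), with values as deposited and after median ratio scaling. Contraction, calcium, citric acid cycle, respiratory chain, fatty acid oxidation and sugar metabolism proteins exceeded the share of all models in red on both scales. In blue, leukocyte proteins exceeded it by the most, and tubular transport, epithelium and filter, detoxification and transcription proteins by less, on both scales. Housekeeping proteins exceeded it in blue as deposited only. The leukocyte families, and some of the contraction and respiratory chain families, were added after levels had been seen. Models that passed the filter through 1 group only are included.

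Proteins of the contractile filaments headed the differences. Of the 95 tested models in the contraction families, 42 were higher in heart and 32 higher in the libraries labelled kidney (48 and 22 under median ratio scaling). Of the 95, 13 had passed the filter through heart only and 3 through the other group only. The families together took 7.83 to 12.1% of the heart sum and 0.630 to 0.681% of the other. The light chain, troponin C and small heat shock families among them were added after levels had been seen. The regulatory light chains alone gave 44560, 25970 and 34480 FPKM of the group's 98920, 63360 and 81100 FPKM in heart. These counts and shares therefore rest in part on that choice. The most different model of all, GOAT_ENSBTAP00000024444-D2, encodes a myosin regulatory light chain of 165 residues (scaffold 327, 1461332 to 1467490, plus strand). It reached 42452, 24817 and 33617 FPKM in heart and was listed at 0 in every library labelled kidney (adjusted p = 6.72e-08). Troponin C, the calcium sensor of the thin filament, is a single model of 153 residues (GOAT_ENSP00000232975, scaffold 1513, 1610241 to 1611486, minus strand). Its level was 10219.7, 8042 and 8034 FPKM in heart and 0, 0.168 and 0.192 FPKM in the libraries labelled kidney, a difference of 12.93 ± 0.18 (adjusted p = 6.72e-08). Neither model had overlapping groups.

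The remaining sarcomere families gave the same contrast at lower levels. Only 1 of 7 muscle myosin heavy chain models was tested, and it stood at 922, 524 and 434 FPKM in heart and at 0 in the libraries labelled kidney (GOAT_ENSP00000386041, adjusted p = 1.22e-06). The troponin I model, the inhibitory subunit, had 753, 390.0 and 504 FPKM against 0.396, 0 and 0 FPKM (8.89 ± 0.28, GOAT_ENSP00000356281, adjusted p = 1.3e-06). The essential light chain GOAT_ENSBTAP00000011047-D2 measured 5221, 2745 and 2455 FPKM in heart and 7.82, 0.321 and 0.122 FPKM in the other group, whose replicate 1 was the highest. Replicate 1 stood out in the actin GOAT_ENSBTAP00000006532 too. This actin was at 8018, 976 and 484 FPKM in heart and at 1.39, 0.622 and 0.142 FPKM in the libraries labelled kidney, and its difference was 9.89 ± 0.95 with all libraries (adjusted p = 0.000124) and 8.71 without heart replicate 1. A second regulatory light chain, GOAT_ENSP00000389202, was likewise uneven in heart, at 1522, 582 and 219 FPKM, and was listed at 0 in the other group (adjusted p = 2.51e-05).

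Non-muscle forms in these same families pointed the other way. Of the 3 non-muscle and smooth muscle myosin heavy chains, 2 were higher in the libraries labelled kidney and none in heart, and their sums were 25.3, 30.4 and 24.3 FPKM in heart and 211, 141 and 119 FPKM in the libraries labelled kidney. One of them, GOAT_ENSBTAP00000013737, had 15.6, 21.4 and 15.4 FPKM in heart and 114, 118 and 98.4 FPKM in the other libraries (-2.60 ± 0.19, adjusted p = 3.44e-05). An essential light chain, GOAT_ENSP00000293422, was at 265, 362 and 269 FPKM in heart and at 1145, 1042 and 1009 FPKM in the libraries labelled kidney (-1.84 ± 0.21, adjusted p = 0.000261). Thus a family as a whole did not move one way, and the group count of the contraction families includes both kinds.

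All 5 tested small heat shock proteins, chaperones that guard filament proteins from aggregation, were higher in heart. The largest value belonged to GOAT_ENSBTAP00000014529, a model of only 54 residues, with 14981, 11958 and 18972 FPKM in heart. Its libraries labelled kidney were at 0, 13.8 and 0 FPKM, so that only replicate 2 was listed above 0 (adjusted p = 5.09e-05). GOAT_ENSP00000227251, at 175 residues, had 4572, 5762 and 8490.1 FPKM in heart and 19.8, 88.3 and 109 FPKM in the other group (6.69 ± 0.62, adjusted p = 0.000108). All 3 caveolins, the coat proteins of membrane pits, were higher in heart as well, led by GOAT_ENSP00000380525 at 239, 202 and 312 FPKM against 0.218, 0 and 0 FPKM (7.86 ± 0.21, adjusted p = 7.97e-07). Of the 39 tested LIM domain proteins, many of which sit at the Z disc or at adhesion sites, 17 were higher in heart and 14 in the libraries labelled kidney. GOAT_ENSP00000265968 led them with 1534, 485 and 1028 FPKM in heart and 0 in the libraries labelled kidney.

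**Figure D3:**
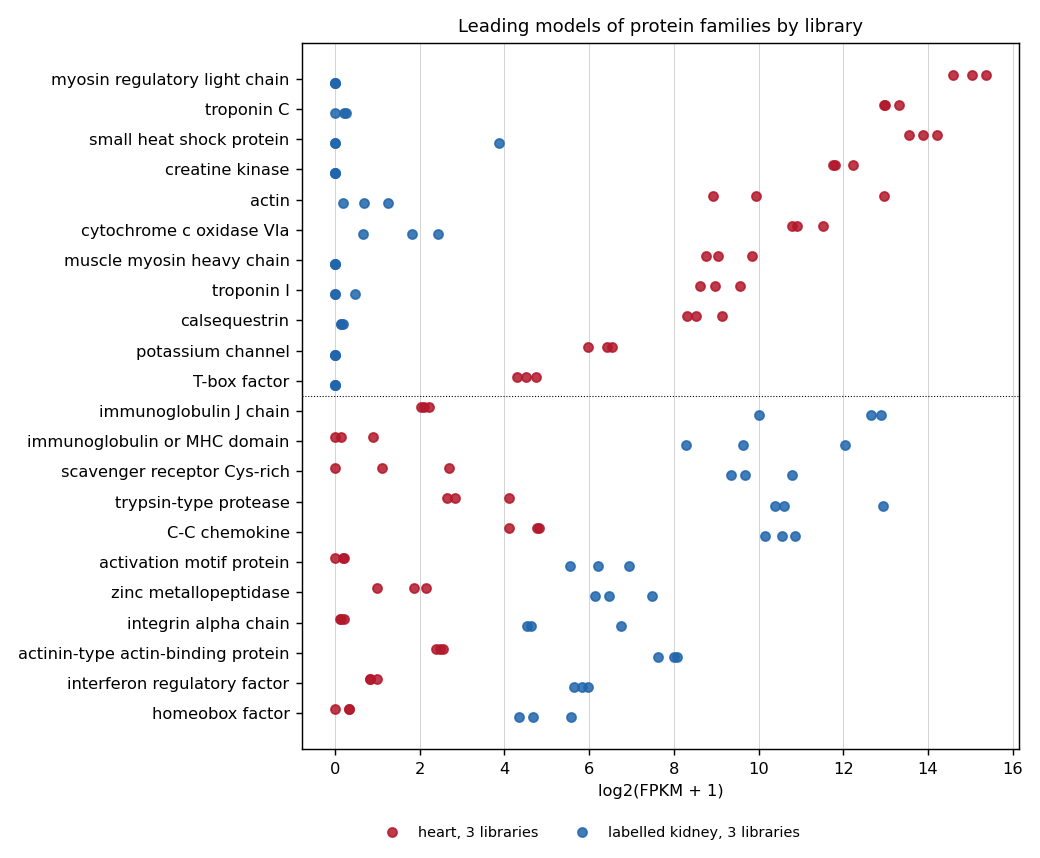
log2(FPKM + 1) of 11 models that were higher in heart (above the dotted line) and 11 that were higher in the libraries labelled kidney, each named by its protein family; every point is 1 library. No model shown has overlapping groups, and the spread is widest for actin in heart and for the small heat shock and immunoglobulin domain proteins in the libraries labelled kidney.

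In the families of calcium handling and excitation 14 of 28 tested models were higher in heart and 9 in the libraries labelled kidney (15 and 8 under median ratio scaling). Of these 28, 6 had passed the filter through heart only and 6 through the other group only, and so had to differ. The SERCA pump GOAT_ENSBTAP00000001838 was at 807, 839 and 717 FPKM in heart and at 38.6, 45.7 and 40.3 FPKM in the libraries labelled kidney (4.21 ± 0.17, adjusted p = 3.24e-06). Phospholamban, its inhibitor, was at 4038, 2814 and 2799.8 FPKM against 16.6, 15.1 and 17.97 FPKM (7.50 ± 0.21, GOAT_ENSBTAP00000017182, adjusted p = 9.57e-07), and its coding span overlaps that of another model. The calsequestrin GOAT_ENSBTAP00000015285, which stores calcium in the sarcoplasmic reticulum, had 558, 316 and 369 FPKM in heart and 0.104, 0.142 and 0.109 FPKM elsewhere (8.50 ± 0.23, adjusted p = 8.36e-07). The second calsequestrin, GOAT_ENSP00000357057, was not called, at 0.595, 0.247 and 1.07 FPKM in heart and 0.105, 0.575 and 0.7701 FPKM in the libraries labelled kidney. Both ryanodine receptor models, the release channels, were higher in heart, and the leading one is a fragment of 242 residues (goat_GLEAN_10007091, 135, 80.7 and 65.7 FPKM against 1.04, 0.625 and 0.718 FPKM).

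Channels divided by model. Of 5 tested connexins, which join the cytoplasm of neighbouring cells, 4 were higher in heart and none in the libraries labelled kidney, and GOAT_ENSP00000282561 had the highest level (96.8, 130.3 and 103 FPKM against 18.2, 37.2 and 15.1 FPKM, 2.27 ± 0.33, adjusted p = 0.000852). Of 16 tested models with the potassium channel filter signature, 5 were higher in heart and 9 in the libraries labelled kidney. The latter include GOAT_ENSBTAP00000043215, which also carries the cadherin signature, so a match need not be a potassium channel. GOAT_ENSP00000306497 was at 62.1, 84.5 and 91.5 FPKM in heart and listed at 0 in each of the other 3 libraries (adjusted p = 1.21e-06). In the opposite direction goat_GLEAN_10007798 was at 22.9, 19.998 and 19.2 FPKM in the libraries labelled kidney and at 0.648, 1.56 and 0.971 FPKM in heart (-3.42 ± 0.21, adjusted p = 1.66e-05).

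Of the 5 tested models of energy buffering, the creatine kinases and fatty acid-binding proteins, 2 were higher in heart and 2 in the libraries labelled kidney (2 and 0 under median ratio scaling). The creatine kinase GOAT_ENSP00000221476 was at 4826, 3600.0 and 3477 FPKM in heart and listed at 0 in the libraries labelled kidney (adjusted p = 6.72e-08). GOAT_ENSBTAP00000001330 was at 751, 593 and 559 FPKM in heart and at 1.396, 1.01 and 1.39 FPKM in the other group (8.13 ± 0.18, adjusted p = 4.37e-07). The third creatine kinase, GOAT_ENSP00000299198, lay the other way as deposited, at 40.3, 15.6 and 14.6 FPKM in heart and 64.3, 34.4 and 50.998 FPKM in the libraries labelled kidney (-1.16 ± 0.42, adjusted p = 0.0393), and was not called under median ratio scaling, or without heart replicate 2 or 3 or labelled kidney replicate 1 or 3. Its groups overlapped, heart replicate 1 lying above replicate 2 of the other group.

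Enzymes of the citric acid cycle were mostly higher in heart, at 7 of 12 tested models against 2 (9 and 1 under median ratio scaling). Citrate synthase, the entry enzyme, was at 326, 209 and 214 FPKM in heart and at 30.6, 41.1 and 42.6 FPKM in the libraries labelled kidney (2.66 ± 0.24, GOAT_ENSBTAP00000005730, adjusted p = 9.2e-05). Both malate dehydrogenases were higher in heart, GOAT_ENSBTAP00000025691 at 1010.4, 968 and 796 FPKM against 83.5, 87.1 and 59.5 FPKM (3.59 ± 0.22) and GOAT_ENSBTAP00000041906 at 935, 609 and 584 FPKM against 60.9, 85.7 and 76.7 FPKM (3.21 ± 0.25). Exceptions remained, since the fumarase-type lyase GOAT_ENSP00000390107 was not called, at 17.8, 14.1 and 16.4 FPKM in heart and 23.8, 19.02 and 18.9 FPKM in the other libraries (-0.33 ± 0.18, adjusted p = 0.131). Its difference turned to 0.29 under median ratio scaling.

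In the respiratory chain 25 of 59 tested models were higher in heart and 20 in the libraries labelled kidney (29 and 9 under median ratio scaling). Each family with 1 tested subunit was higher in heart on both scales, namely the 24, 30 and 75 kDa subunits of complex I, the succinate dehydrogenase flavoprotein, the Rieske protein, subunits Vb and VIa of cytochrome c oxidase and the gamma subunit of ATP synthase. Apart from subunit VIa their differences ran from 2.37 ± 0.25 for the ATP synthase gamma subunit to 3.16 ± 0.24 for the Rieske protein. The Rieske protein of complex III was at 949, 781 and 608 FPKM in heart and at 75.9, 103 and 77.5 FPKM in the libraries labelled kidney (GOAT_ENSP00000306397, adjusted p = 3.82e-05). Subunit Vb was at 4410.1, 2693 and 2759.5 FPKM against 369, 489 and 379 FPKM (GOAT_ENSP00000258424, 2.97 ± 0.27). Subunit VIa, which modulates the oxidase, stood apart from these shared differences at 2936, 1914 and 1779 FPKM against 4.44, 2.53 and 0.595 FPKM (GOAT_ENSP00000287490, 9.43 ± 0.45, adjusted p = 5.49e-06), and it was listed at 0 in the 3 liver libraries. Mitochondrial carriers, which move metabolites across the inner membrane, went both ways, with 15 of 48 tested higher in heart and 19 in the libraries labelled kidney as deposited, and 19 and 8 under median ratio scaling. The carrier GOAT_ENSBTAP00000017580 led them in heart at 4536, 3587 and 3467 FPKM against 25.3, 16.7 and 19.2 FPKM (7.51 ± 0.22, adjusted p = 1.19e-06). In the other direction GOAT_ENSBTAP00000013868 was at 616, 514 and 390.3 FPKM in the libraries labelled kidney and at 32.7, 35.6 and 73.4 FPKM in heart (-3.47 ± 0.34, adjusted p = 0.00014).

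Fatty acid oxidation gave 15 of 33 tested models higher in heart and 11 higher in the libraries labelled kidney (19 and 9 under median ratio scaling). All 5 acyl-CoA dehydrogenases, which take the first oxidative step, were higher in heart, with a median difference of 2.55. The most abundant of them, GOAT_ENSP00000349297, was at 560.5, 689.8 and 442 FPKM against 36.2, 45.99 and 49.95 FPKM (3.64 ± 0.23, adjusted p = 1.86e-05). The model with both the enoyl-CoA hydratase and the 3-hydroxyacyl-CoA dehydrogenase signature, GOAT_ENSBTAP00000020020, was at 353, 425 and 339 FPKM against 34.9, 50.2 and 63.05 FPKM (2.92 ± 0.25). The thiolase GOAT_ENSBTAP00000013310, a neighbour of the last on scaffold 185, was at 502, 736 and 529 FPKM against 42.9, 61.4 and 84.4 FPKM (3.24 ± 0.29). Activation of fatty acids looked different, since only 2 of 14 tested acyl-CoA synthetases and related AMP-binding enzymes were higher in heart and 8 in the libraries labelled kidney. Of 4 tested carnitine acyltransferases, 2 were higher in heart, and GOAT_ENSP00000265641 was higher in the libraries labelled kidney, at 24.4, 42.3 and 55.1 FPKM against 5.897, 5.56 and 4.35 FPKM (-2.66 ± 0.30, adjusted p = 0.000265).

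Sugar metabolism divided by enzyme form, with 6 of 13 tested models higher in heart and 5 in the libraries labelled kidney (6 and 4 under median ratio scaling). Glycogen phosphorylase, which releases glucose units from glycogen, was led by GOAT_ENSBTAP00000001373 at 253, 191 and 196 FPKM in heart and 3.08, 1.79 and 1.201 FPKM in the other group (6.18 ± 0.26, adjusted p = 3.76e-06). The sugar transporter GOAT_ENSBTAP00000012109 was at 45.3, 39.7 and 58.2 FPKM against 1.54, 0.866 and 0.833 FPKM (4.55 ± 0.22, adjusted p = 5.87e-06). The enzymes of glucose synthesis, which liver and kidney cortex share, were low in both groups. Fructose-1,6-bisphosphatase GOAT_ENSBTAP00000012835 was at 25.3, 19.1 and 4.86 FPKM in the libraries labelled kidney, 1.79, 1.02 and 0.472 FPKM in heart and 682, 275 and 124 FPKM in liver. Phosphoenolpyruvate carboxykinase GOAT_ENSBTAP00000015834 was at 5.19, 5.62 and 5.71 FPKM in the libraries labelled kidney, 0.229, 0.753 and 0.457 FPKM in heart and 171, 229.6 and 159 FPKM in liver. Both were called higher in the libraries labelled kidney than in heart (adjusted p = 0.00319 and 7.36e-05), though liver exceeded both groups.

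Among transcription factors 16 of 62 tested models were higher in heart and 32 in the libraries labelled kidney (18 and 24 under median ratio scaling). GATA factors and T-box factors include regulators of heart formation. The GATA factor GOAT_ENSP00000371772 was at 19.2, 14.3 and 15.6 FPKM in heart and at 0.11, 0 and 0.113 FPKM in the libraries labelled kidney (4.01 ± 0.18, adjusted p = 4.41e-06). The T-box factor GOAT_ENSP00000309913 was at 18.8, 21.96 and 25.8 FPKM in heart and was listed at 0 in the other 6 goat libraries, liver included. A different T-box factor, GOAT_ENSP00000177694, took the other direction, at 31.4, 16.8 and 14.8 FPKM in the libraries labelled kidney and 0.745, 0 and 0.0607 FPKM in heart (-4.09 ± 0.34, adjusted p = 6.41e-05). Of 8 paired box models, a family with members that direct kidney formation, 7 stayed at or under 0.5 FPKM in all libraries labelled kidney. The exception, GOAT_ENSP00000350844, was at 10.3, 8.61 and 5.31 FPKM there and listed at 0 in heart (adjusted p = 4.04e-05). The signature does not tell which member of the family this model is, so it cannot be read as a factor of kidney formation. The homeobox factor GOAT_ENSBTAP00000014710 was at 19.3, 46.6 and 24.6 FPKM against 0, 0.268 and 0.263 FPKM (-4.64 ± 0.32, adjusted p = 2.85e-05) and was listed at 0 in liver.

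The leukocyte families, which were added after levels had been seen, were mostly higher in the libraries labelled kidney. Of 104 tested models in these families, 20 of which had passed the filter through those libraries only and 3 through heart only, 71 were higher in the libraries labelled kidney and 10 in heart (63 and 17 under median ratio scaling), with a median difference of -2.27 beside -0.61 for all tested models. The families took 2.33 to 2.42% of the sum in the libraries labelled kidney and 0.0836 to 0.118% in heart. The J chain, which links immunoglobulin subunits in plasma cells, was at 7542, 6471 and 1028 FPKM in the libraries labelled kidney and at 3.69, 3.09 and 3.296 FPKM in heart (-9.73 ± 0.71, GOAT_ENSP00000254801, scaffold 980, 866215 to 875157, minus strand, adjusted p = 3.47e-05). Replicate 3 was the lowest of the 3 there, and without it the difference was -10.65. The protein GOAT_ENSBTAP00000042747, with an immunoglobulin or MHC domain, was at 4179, 788 and 312 FPKM against 0.864, 0 and 0.111 FPKM (-9.63 ± 0.86, adjusted p = 8.76e-05), again with replicate 3 lowest. The protein GOAT_ENSBTAP00000052118, with scavenger receptor cysteine-rich domains, was at 1765, 815 and 648 FPKM against 0, 5.52 and 1.16 FPKM (-8.66 ± 0.69, adjusted p = 5.24e-05), and 8 of 11 tested members of its family were higher in the libraries labelled kidney and 1 in heart.

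Antigen receptor signalling and chemokines followed. Of 10 tested proteins with the tyrosine-based activation motif, the docking sequence of antigen receptor subunits, 7 were higher in the libraries labelled kidney and 1 in heart. GOAT_ENSP00000221972 was at 122, 73.4 and 45.8 FPKM there and at 0.158, 0 and 0.142 FPKM in heart (-6.10 ± 0.34, adjusted p = 1.04e-05). GOAT_ENSBTAP00000044200 and GOAT_ENSP00000300692 lie next to each other on scaffold 548 and were at 211, 122 and 107 FPKM and 122, 66.1 and 52.1 FPKM in the libraries labelled kidney, against 2.81, 2.24 and 0.842 FPKM and 0.925, 1.34 and 0.838 FPKM in heart. These levels did not overlap between the groups. Of 7 tested C-C chemokines, attractants of lymphocytes and monocytes, 6 were higher in the libraries labelled kidney, as were all 5 tested C-X-C chemokines. The most abundant, GOAT_ENSBTAP00000013399, was at 1505, 1128 and 1854 FPKM against 16.4, 27.01 and 26.1 FPKM (-5.96 ± 0.28, adjusted p = 5.05e-06).

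Surface and lysosomal families of leukocytes moved likewise, with exceptions. Of 13 integrin alpha chains, 9 were higher in the libraries labelled kidney and 3 in heart. GOAT_ENSP00000394604 and GOAT_ENSBTAP00000009348, both on scaffold 6, were at 108, 22.1 and 23.9 FPKM and 32.7, 33.5 and 29.8 FPKM there, against 0.163, 0.1099 and 0.0913 FPKM and 0.659, 0.642 and 0.6895 FPKM in heart. GOAT_ENSP00000343009 was the reverse, at 38.1, 89.4 and 58.8 FPKM in heart and 1.31, 0.854 and 0.601 FPKM in the libraries labelled kidney (4.97 ± 0.32, adjusted p = 2.02e-05). Of 14 tested papain-type proteases, lysosomal enzymes that also cut antigens, 8 were higher in the libraries labelled kidney and 2 in heart, and GOAT_ENSP00000357981 was at 1012, 1397 and 1255 FPKM against 19.7, 27.8 and 24.1 FPKM (-5.62 ± 0.21, adjusted p = 2.42e-06). The lysozyme GOAT_ENSP00000261267 was at 58.99, 241 and 587 FPKM against 1.71, 0.876 and 3.29 FPKM (-6.19 ± 0.78, adjusted p = 0.000425), its replicate 1 being the lowest. All 3 interferon regulatory factors were higher in the libraries labelled kidney, GOAT_ENSP00000268638 by the most (62.4, 48.9 and 56.2 FPKM against 0.998, 0.783 and 0.773 FPKM, -4.94 ± 0.17). The trypsin-type protease goat_GLEAN_10007712, outside these families, was at 7895, 1331 and 1563 FPKM against 16.3, 6.17 and 5.31 FPKM (-8.11 ± 0.72, adjusted p = 8.7e-05). The zinc metallopeptidase GOAT_ENSBTAP00000011924 was at 178, 88.2 and 69.95 FPKM against 0.996, 2.63 and 3.47 FPKM (-5.03 ± 0.42, adjusted p = 6.71e-05). One beta-type globin was called, at 56.1, 67.7 and 72.8 FPKM against 1.999, 1.34 and 1.57 FPKM (GOAT_ENSBTAP00000050256-D3). The other, GOAT_ENSBTAP00000050256, rested on replicate 1 alone, at 152, 1.11 and 0.424 FPKM, and was not called.

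Several of the largest differences in this direction fell on models with no deposited protein or no signature. Of the 10 most abundant models in the libraries labelled kidney, 4 had no protein, and 2360 of all tested models had none. GOAT_ENSP00000374859 had the largest difference, at 52613, 25627 and 5942 FPKM against 8.297, 1.19 and 1.16 FPKM (-12.47 ± 0.88, adjusted p = 3.03e-05). GOAT_ENSP00000418294 had 10319.6, 11443 and 1295 FPKM against 1.697, 0.628 and 0.453 FPKM (-11.49 ± 0.81) and GOAT_ENSBTAP00000032915 had 4442, 2704 and 530.4 FPKM against 0, 0.494 and 0 FPKM (-10.66 ± 0.72). Replicate 3 was the lowest of the 3 libraries labelled kidney in each, as in the J chain. By contrast GOAT_ENSP00000294728, a model of 740 residues without a signature, was even across replicates at 575, 504 and 446 FPKM against 0.0847, 0.177 and 0.0762 FPKM (-8.83 ± 0.17, adjusted p = 1.81e-07). In heart, the corresponding models included GOAT_ENSP00000384239 at 11659.5, 8934 and 9581 FPKM against 0, 0.317 and 0 FPKM and goat_GLEAN_10001033 at 7951, 6460.3 and 5528 FPKM against 0, 0 and 0.115 FPKM.

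Transport families of the tubule were called in shares close to those of all models. Of 86 tested models, 48 were higher in the libraries labelled kidney and 13 in heart as deposited, and 34 and 27 under median ratio scaling, beside 49.1% and 19.6%, and 32.4% and 30.8%, of all tested models. The aquaporin GOAT_ENSBTAP00000011196 was at 65.9, 24.5 and 13.1 FPKM in the libraries labelled kidney and at 3.26, 2.82 and 2.66 FPKM in heart (-2.89 ± 0.51, adjusted p = 0.00207), whereas the aquaporin GOAT_ENSBTAP00000000993 was higher in heart (83.5, 81.95 and 52.8 FPKM against 16.6, 13.4 and 7.57 FPKM, 2.48 ± 0.31). The sodium pump catalytic subunit GOAT_ENSBTAP00000013169, which powers tubular reabsorption and is abundant in heart, was at 263, 191 and 212 FPKM in heart and at 67.7, 86.8 and 90.4 FPKM in the libraries labelled kidney (1.43 ± 0.20, adjusted p = 0.000758). Neither of the 2 tested sodium-solute symporters was called. The model GOAT_ENSP00000361381, of the sodium-neurotransmitter and amino acid symporters, was higher in the libraries labelled kidney at 10.9, 29.2 and 42.7 FPKM against 0.336, 0.172 and 0.601 FPKM (-4.21 ± 0.45, adjusted p = 0.000211).

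Proteins present in most cells moved with the scale. Of 209 tested models in the housekeeping families, 129 were higher in the libraries labelled kidney and 22 in heart, and 67 and 37 under median ratio scaling. Of 163 tested C2H2 zinc finger proteins, DNA-binding regulators, 106 were higher in the libraries labelled kidney and 10 in heart as deposited, but 55 and 24 under median ratio scaling. Of 21 tested DEAD box helicases, which unwind RNA, 17 and 2 were so called as deposited, and 7 and 2 under median ratio scaling. The 71 calls of the leukocyte families were 63 on that scale.

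Paralogues gave a view within families. Reciprocal best matches among the proteins of tested models (50 to 95% identical over at least 70% of both) formed 778 pairs. In 127 pairs (16.3%) the members were called in opposite directions, and in 138 (17.7%) under median ratio scaling, with 87 pairs in both sets. Of all tested models, 19.6% were higher in heart and 49.1% in the libraries labelled kidney (30.8% and 32.4% under median ratio scaling). The share of opposite calls among unrelated models was not computed. The count therefore does not show that paralogues part more often than other models. In 49 pairs both members were higher in heart and in 219 both were higher in the libraries labelled kidney. The pairs named here were taken, after their values were seen, from the 17 opposite pairs whose members share a signature. Among enolases, the glycolytic enzymes that form phosphoenolpyruvate, GOAT_ENSP00000370739 was at 1021, 874 and 1003 FPKM in heart and 3.38, 4.89 and 4.62 FPKM in the libraries labelled kidney (7.52 ± 0.18). Its partner GOAT_ENSBTAP00000017839, 84.4% identical, was at 84.8, 70.1 and 83.04 FPKM and 169.9, 269 and 277 FPKM (-1.55 ± 0.24). One form thus dominated in each group, by level per length.

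Other pairs of enzymes and filament proteins also had members called in opposite directions. The lactate dehydrogenase GOAT_ENSP00000379386 was at 2578, 1962 and 1686 FPKM in heart and 224, 291 and 212 FPKM in the libraries labelled kidney (3.09 ± 0.25), and GOAT_ENSBTAP00000047729-D2 at 27.5, 27.4 and 27.97 FPKM and 77.6, 152 and 193 FPKM (-2.21 ± 0.33). The heart-higher form was nevertheless the more abundant in each of the 3 libraries labelled kidney. The tropomyosin GOAT_ENSP00000350667 differed by 5.65 ± 0.50 and its partner GOAT_ENSBTAP00000005982 by -1.98 ± 0.31. Isocitrate dehydrogenases GOAT_ENSP00000331897 and GOAT_ENSBTAP00000027348 differed by 2.36 ± 0.26 and -2.02 ± 0.26. In the actinin-type pair the contrast lay in 1 member, since GOAT_ENSBTAP00000031879 was nearly level at 27.2, 26.8 and 24.5 FPKM and 18.002, 20.7 and 17.7 FPKM (0.46 ± 0.15, adjusted p = 0.031, a call lost when any library other than labelled kidney replicate 2 was left out), while GOAT_ENSBTAP00000009308 was at 4.88, 4.58 and 4.1998 FPKM in heart and 197, 255 and 269 FPKM in the libraries labelled kidney (-5.43 ± 0.18). How reads shared by such copies were assigned is not given in the sources used here.

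**Figure D4:**
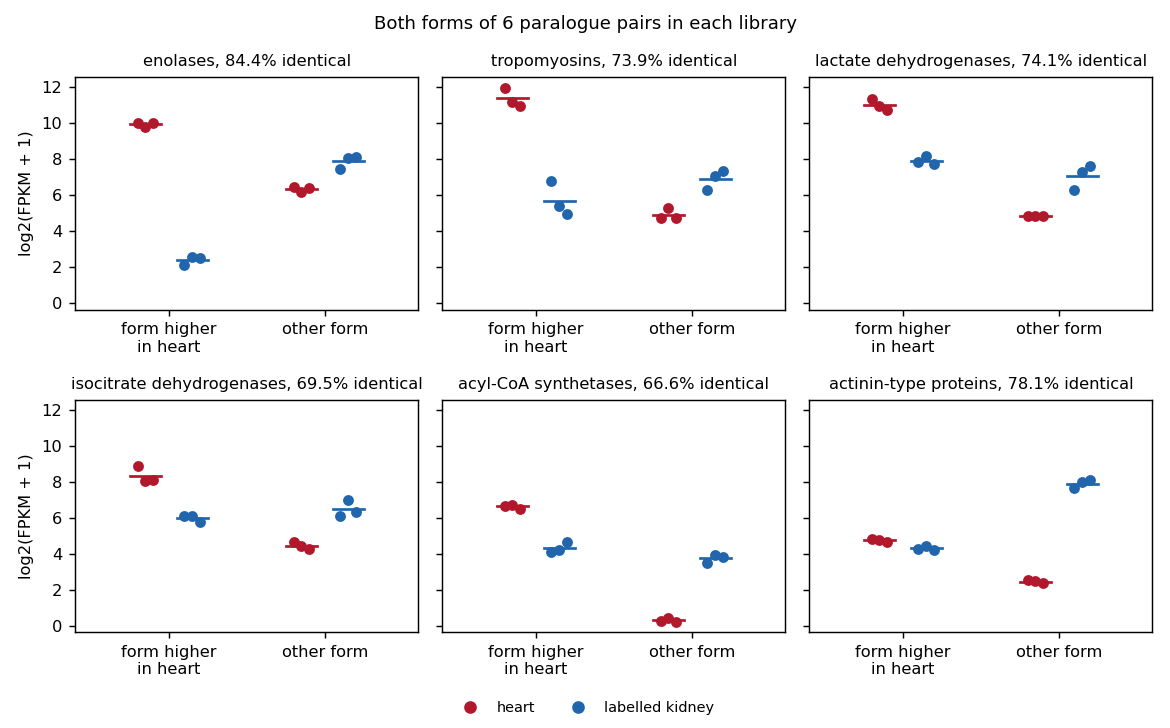
log2(FPKM + 1) of both forms of 6 paralogue pairs in the 3 heart libraries (red) and the 3 libraries labelled kidney (blue), with lines at the means and the percent identity of the proteins. In every pair the left form is higher in red and the right form is higher in blue.

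Libraries of the same number varied together across tissues. Proteins of the interferon response families are described here as examples, chosen after their values were seen. In all, 116 models varied by 4-fold or more between replicates of both groups, and in 88 of these replicate 3 was the highest in both, in 9 replicate 1 and in 7 replicate 2. In 98 the same number was highest in heart, in the libraries labelled kidney and in liver. The 2-5A synthetases, interferon-induced enzymes that activate RNA cleavage, summed to 5.02, 196 and 312 FPKM in heart replicates 1, 2 and 3, 25.5, 744 and 1414 FPKM in those labelled kidney and 50.3, 576 and 1179 FPKM in liver. Replicate 1 was the lowest in every tissue. None of the 4 models was called without the replicate number as a block and all 4 were with it, and for goat_GLEAN_10016577 (3.91, 159 and 249 FPKM in heart and 16.6, 541 and 964 FPKM in the libraries labelled kidney, -1.85 ± 1.91) the adjusted p changed from 0.412 to 0.000193.

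The Mx-type GTPase GOAT_ENSBTAP00000041289, an antiviral protein, was at 3.197, 83.5 and 251 FPKM in heart, 21.03, 326 and 926 FPKM in the libraries labelled kidney and 21.1, 222 and 518 FPKM in liver, and its adjusted p was 0.332 without and 0.000215 with the block. The ubiquitin-like modifier GOAT_ENSP00000368699 was at 2.98, 606 and 2559 FPKM in heart, 26.2, 1318 and 3186 FPKM in the libraries labelled kidney and 81.6, 2149.6 and 4969 FPKM in liver (adjusted p = 0.655 without and 0.0357 with the block). Thus the spread within a tissue exceeded the difference between tissues for these proteins. The C-X-C chemokine GOAT_ENSBTAP00000039324 combined both, at 0.667, 8.89 and 46.3 FPKM in heart and 41.1, 446 and 2024 FPKM in the libraries labelled kidney (-5.19 ± 1.61, adjusted p = 0.023 without and 2.63e-05 with the block). Its groups overlapped, and the call without the block was lost when heart replicate 1 or 2, or labelled kidney replicate 2 or 3, was left out, at differences of -3.96, -5.24, -4.99 and -3.897. GOAT_ENSP00000364092, a model of 75 residues without a signature, had replicate 1 far below the others at 9.92, 5983 and 4723 FPKM in heart, 1.92, 3515 and 2353 FPKM in the libraries labelled kidney and 9.74, 3392 and 2979 FPKM in liver (adjusted p = 0.76 without and 0.00957 with the block).

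**Figure D5:**
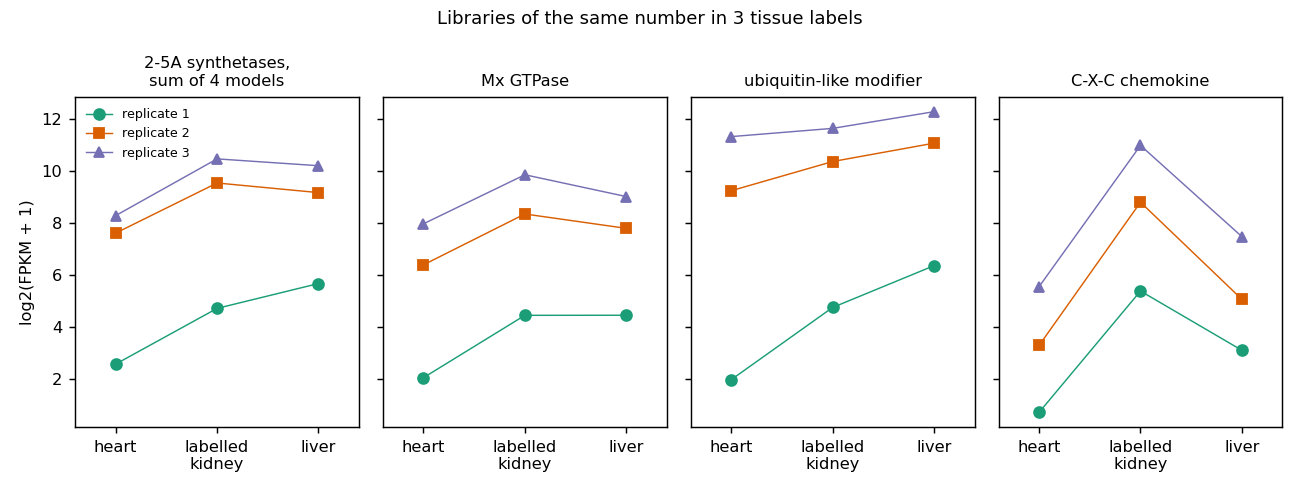
log2(FPKM + 1) of the summed 2-5A synthetases, the Mx-type GTPase, the ubiquitin-like modifier and a C-X-C chemokine, with lines joining libraries of the same replicate number across heart, labelled kidney and liver. Replicate 1 is the lowest and replicate 3 the highest in every panel and tissue.

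Proteins of the models called in each direction differed in build. A hydrophobic segment was found in 31.9% of the tested models with a protein, in 29.1% of those higher in heart and in 35.5% of those higher in the libraries labelled kidney (27.5 and 38.6% under median ratio scaling). A segment at the amino end, as in secreted proteins, was found in 11.4, 10.2 and 13.3% in the same order. Among models at least 16-fold different, 14.4% of those higher in heart and 33.3% of those higher in the libraries labelled kidney had such an end. Median protein length was 331 residues for models higher in heart, 473 for those higher in the libraries labelled kidney and 410 for all tested. A peroxisomal end signal was rare throughout (0.498% of all, 0.810% higher in heart and 0.307% higher in the libraries labelled kidney). Among models at least 16-fold different it was found in 2.31% of the 216 with a protein higher in heart. The share was 0.366% of the 273 higher in the libraries labelled kidney, and both shares rest on few models.

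The most abundant models of each group were partly shared. GOAT_ENSBTAP00000015883 had the highest mean in heart, at 55614, 67202 and 80291 FPKM, and was also among the 10 highest in the libraries labelled kidney, at 3429, 10461 and 11532 FPKM (3.17 ± 0.53, adjusted p = 0.00157). GOAT_ENSBTAP00000008319 followed in heart, at 51933, 43970.5 and 38423 FPKM against 2537, 3744 and 2738 FPKM (3.91 ± 0.31). Each of these models encodes only 50 residues, and FPKM is a level per length, so their ranks are not ranks of fragment number. The short ubiquitin-like model GOAT_ENSBTAP00000053003-D5, whose identifier carries a copy suffix, stood among the 10 highest of both groups and was not called as deposited but was called higher in heart under median ratio scaling, at 6169, 11284 and 9315 FPKM in heart and 2261, 4534 and 7271 FPKM in the libraries labelled kidney (1.04 ± 0.48, adjusted p = 0.0894). GOAT_ENSP00000379978 was the second highest in the libraries labelled kidney, at 7856, 12511 and 13124 FPKM against 1043, 2134 and 2545 FPKM (-2.61 ± 0.41, adjusted p = 0.00122).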

How the data were processed

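Strand-specific mRNA libraries were sequenced by the authors, aligned with TopHat to the CHIR_1.0 goat assembly per the study's methods, and quantified with Cufflinks 2.2.1 (the submitters' processing notes also name UMD3.1). The deposited values are log2(FPKM + 1), with a pseudocount of 1, and were turned back into FPKM where levels are given. Positions come from the deposited protein headers.

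Models that exceeded 0.5 FPKM in 3 or more of the 6 libraries were fitted with limma 3.58.1 (R 4.3.3; trended variance, Benjamini-Hochberg adjustment over all 12993 models, threshold 0.05). No replicate block was used in this fit. Libraries of the same number deviated together (r = 0.517, 0.263 and 0.464 over 9781 models), so the replicate numbers were taken to pair the libraries. The labels do not say whether replicates were separate animals. The study's methods name unrelated females. An exact permutation test of 3 against 3 cannot go below p = 0.1. Tested on simulated data, the fit recovered 89.5% of 200 models changed by 2 log2 units, and 4.79% of its calls were false. The simulated libraries were independent and only 200 of the 12993 models were changed. In the data, libraries of the same number varied together and most tested models were called. The simulation therefore does not give the share of false calls in the data.

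Of 22131 identifiers, 0 were found in the reference gene table, so the 729 planned gene symbols were not analysed here. Instead, 127 sequence signatures were searched in the proteins of 18215 models, and 120 families had a model. Hydrophobic segments were windows of 19 residues with a mean hydropathy of at least 1.6. Paralogues came from blastp 2.17.0+. The text names the largest differences, the most abundant members and the opposite-direction members of each family, a planned rule applied here without its symbol condition. Members and lists were chosen with earlier results of these data known. The leukocyte, interferon, light chain, troponin C, small heat shock and oxidase VIa families were added after levels were seen, as were models named outside the rule. Alternatives were other scalings, filters, pseudocounts, the replicate block, the goat liver libraries and leaving out each library.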

Additional observations from a re-analysis of the deposited data

How the results depend on the processing

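Of 8922 calls, the total stayed within 1.5 times under every alternative run. The directions moved with scaling: 4007 higher in heart and 4212 in the libraries labelled kidney under median ratio scaling, and 3897 and 4127 under quantile normalization. Equal sum scaling went the other way, to 1965 and 7655 of 9620 calls. The cause was not tested. Leaving out each library gave 7893 to 9152 calls, 2210 to 2466 higher in heart and 5555 to 6686 in the libraries labelled kidney. With the replicate number as a block, since the numbers pair the libraries, 9563 models were called, 8847 of them in both fits, with 75 lost, 716 gained and 0 sign changes. Outside the models given with a block value, it changed no call of a named model. Setting zeros beside high replicates to missing, an alternative chosen after seeing the data, gave 8931 calls. Among the named models, differences changed sign for 4, which were not called without the block (GOAT_ENSP00000364092 and GOAT_ENSP00000368699 were called with it): GOAT_ENSP00000357057 (-0.0583 to 0.3216 over the libraries left out), GOAT_ENSP00000364092 (-2.09 to 4.2014, negative without heart replicate 2 or 3, or labelled kidney replicate 1), GOAT_ENSP00000368699 (-3.48 to 1.36, positive without heart replicate 1) and GOAT_ENSP00000390107 (0.29 under median ratio scaling and 0.16 under quantile normalization). Of the counts per protein group and alternative, 585 stayed within 1.5 times and 55 moved further. A match without the reciprocal condition was not run. Read depth is unknown, and so limits on low values cannot be set. The marker families of kidney gave a mixed answer in all 3 libraries of that label.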

Other observations

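Families outside the main comparisons were mixed. Of 84 tested detoxification models 44 were higher in the libraries labelled kidney and 17 in heart (36 and 21 under median ratio scaling). Catalase, which breaks down hydrogen peroxide, was the reverse at 186, 213 and 257 FPKM in heart and 76.9, 71.1 and 51.2 FPKM in the libraries labelled kidney (GOAT_ENSP00000241052, 1.71 ± 0.22, limma adjusted p = 0.000504). Serpins, inhibitors of serine proteases, held both extremes. GOAT_ENSBTAP00000031243 was at 39.4, 70.4 and 76.5 FPKM in heart and 0.261, 0.808 and 4.14 FPKM in the libraries labelled kidney (4.74 ± 0.53), and GOAT_ENSBTAP00000014932 was at 0.212, 0.354 and 0.221 FPKM and 32.8, 24.6 and 21.6 FPKM (-4.42 ± 0.20). Of 122 tested epithelium and filter models 61 were higher in the libraries labelled kidney and 20 in heart (45 and 34 under median ratio scaling). The cadherin GOAT_ENSBTAP00000051651, a cell adhesion protein, was higher in heart at 204, 251 and 246 FPKM against 3.29, 3.66 and 2.299 FPKM (5.85 ± 0.19, limma adjusted p = 1.66e-06).

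Of the 50 tested models of other cell types, which include globins, albumin family and immunoglobulin or MHC domain proteins, 29 were higher in the libraries labelled kidney and 7 in heart (26 and 10 under median ratio scaling). The albumin family model GOAT_ENSBTAP00000022763 was at 63.1, 76.2 and 9.68 FPKM in the libraries labelled kidney, with replicate 3 lowest, at 0.0368, 0.0668 and 0.0335 FPKM in heart and at 0, 11676 and 9247 FPKM in liver. Of the 4 tested models of amino acid metabolism 2 were higher in each group, and the D-amino acid oxidase GOAT_ENSBTAP00000013892 was at 25.3, 12.5 and 13.4 FPKM in heart and 0.308, 0.501 and 0.384 FPKM in the libraries labelled kidney (3.63 ± 0.28). Of the 14 models of the interferon response families, 3 were higher in the libraries labelled kidney and 0 in heart as deposited (3 and 1 under median ratio scaling), and 9 were higher in the libraries labelled kidney with the replicate number as a block. Translation GTPases, which drive protein synthesis, had 7 of 10 tested models higher in heart, whereas goat_GLEAN_10013077 was at 1137, 813 and 664 FPKM in the libraries labelled kidney and 72.4, 97.1 and 121 FPKM in heart (-3.15 ± 0.28). The nuclear receptor GOAT_ENSP00000355904 was at 8.26, 9.29 and 9.398 FPKM in heart and listed at 0 in the libraries labelled kidney.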
